A study of Rattus norvegicus with 8 samples.

Results

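Long circular RNAs (circRNAs) are described here in rat cerebral cortex, as those whose back-splice junction joins positions more than 50000 bases apart. The span was counted from the first to the last base of each entry, and 5622 of the 51995 circRNAs in the table (10.8%) met the rule. Their spans ran from 50005 to 99986 bases, with a median of 66907. The other 46373 circRNAs, of 50000 bases or less, are called shorter circRNAs below. Span was the only property in the rule for the long ones, so no abundance enters it. The rule was set with earlier results of these data known, and many circRNAs and loci named below were picked by their values.

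A circRNA forms when the splicing machinery joins the end of an exon back to the start of the same or an upstream exon, which leaves a closed ring with no cap and no poly(A) tail. Short-read sequencing detects it by reads that cross this junction, so the span is the stretch of genome between the joined ends, introns included, and not the length of the ring. Circles of several exons usually lose their introns, and many circles can share a start or an end because splice sites combine in different ways. Brain is rich in circRNAs, many from long genes of neurons, and rings are degraded slowly because exonucleases find no free end.

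Total RNA came from 8 rats, 1 library each. In 4 animals a moderate traumatic brain injury (mTBI) had been made and the ipsilateral cortex near the injury was taken 24 h later. The other 4 were sham animals, with cortex from the corresponding site. The animals were perfused with saline, and RNA integrity numbers were at least 7. The labels give no strain, sex or age, and the injury method is not given in the sources used here. Values are RPM, the junction reads of a circRNA scaled to the reads of its library, and a circRNA is called listed where its value is above 0. Entries carry positions on the Rnor_6.0 assembly and strand but no gene names, so circRNAs are named by position, and neither cortex markers nor host genes could be read. Fewer cells that make a circRNA and less of it per cell cannot be told apart in bulk tissue.

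Over all circRNAs the libraries held 4966 to 5874 RPM, of which long circRNAs made up 413 to 499 RPM. If the smallest listed value, 0.0257 to 0.0262 RPM, stands for 2 junction reads, the long circRNAs rest on 32009 to 38422 reads per library. Libraries mTBI 1 and mTBI 2 had the lowest summed RPM of long circRNAs, 413 and 419, and mTBI 4 the highest, 499. Sham 2 was at 427 RPM, while sham 1, 3 and 4 stood at 471, 477 and 473.

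Long circRNAs took a smaller part of the signal than of the list. They made up 10.8% of the entries and 8.29% to 8.78% of the RPM, depending on the library. With rising span both shares shrank. Spans above 50000 and up to 60000 bases included 1807 circRNAs with 3.08% of the RPM, and spans above 90000 bases included 611 with 0.640%. The summed RPM per circRNA was 0.0919 in the first of these bands and 0.0564 in the second, against 0.108 for spans of up to 10000 bases. It was 0.0888 between 30000 and 40000 bases and 0.101 between 40000 and 50000, so the lower values did not begin at the limit. Among circRNAs listed in all 8 libraries the median level varied less, at 0.168 RPM between 50000 and 60000 bases, 0.194 between 60000 and 70000, 0.133 above 90000 and 0.191 up to 10000. Within each library, a listed long circRNA averaged 0.199 ± 0.00896 RPM and a listed shorter one 0.243 ± 0.00736 (SD, n = 8 libraries). The long average was lower in 8 of 8 libraries (exact sign-flip permutation test within libraries, two-sided, p = 0.00781, the smallest that 8 libraries allow, and 0.00781 after adjustment over 4 such comparisons). The libraries draw on the same set of circRNAs, so this p measures only how regularly the difference recurs between libraries. It does not test whether long circRNAs differ as a class, and the same holds for the other such comparisons below.

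**Figure D1:**
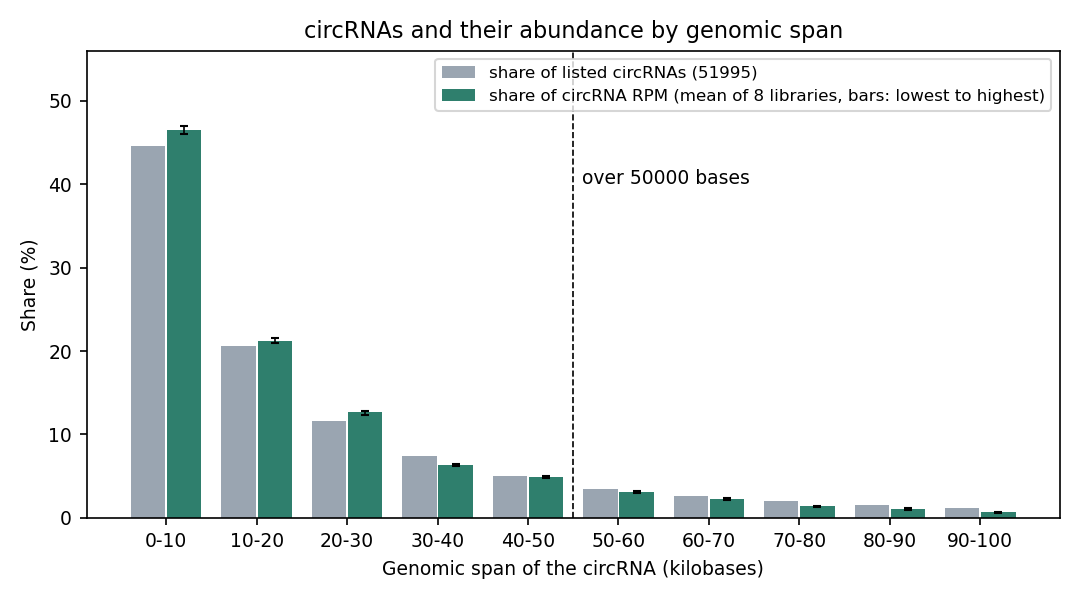
Percent of circRNA entries and percent of summed RPM (mean of 8 libraries, error bars from the lowest to the highest library) by span in bands of 10000 bases, with a dashed line at 50000 bases. The share of RPM runs from 46.4% in the shortest band to 0.640% above 90000 bases. In each of the 5 bands above the line it is below the share of entries. The same holds from 30000 to 40000 bases (6.37% of RPM, 7.43% of entries) and from 40000 to 50000 bases (4.86% and 4.98%).

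Abundance was concentrated in few long circRNAs. The 10 with the highest mean RPM over the 8 libraries held 14.8% to 18.7% of the long RPM in single libraries. The 100 with the highest mean held 48.5% to 51.1%. The share of a chromosome's RPM in long circRNAs was highest on chromosome 8 (13.9% over all libraries, 12.7% to 14.9% in single ones) and chromosome 5 (13.6%, 12.9% to 14.3%), and lowest on chromosome 10 (2.69%, 2.49% to 2.96%). The libraries' ranges on chromosomes 8 and 10 were far apart. By entries, chromosome 1 had the most, 549, while chromosome 13 had a large share for its total, 347 of 2090 (16.6%). On the plus strand lay 2814 of them (50.1%). Chromosome sizes and gene lengths were not used here.

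Detection over the 8 libraries fell into extremes. A single library listed 2358 long circRNAs (41.9%), and all 8 listed 827 (14.7%). Between these, 806 were listed in 2 libraries, 457 in 3, 358 in 4, 271 in 5, 234 in 6 and 311 in 7. The same shares for shorter circRNAs were 39.2% in a single library and 17.8% in all 8. The 827 in every library carried 80.8% of the long RPM, and the 2358 in a single library 2.66%. In each library, 12.9% ± 0.757 of the long circRNAs listed there were listed nowhere else, against 11.2% ± 0.550 of the shorter ones (SD, n = 8), and 21.1% ± 1.02 of the long against 19.1% ± 0.640 of the shorter stood at the smallest listed value. Both differences had the same sign in 8 of 8 libraries (exact sign-flip permutation test, p = 0.00781 for each, 0.00781 adjusted over the 4 comparisons).

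The share in all 8 libraries was also compared at like abundance. Between mean levels of 0.13 and 0.26 RPM, 91.3% of 252 long and 95.0% of 2419 shorter circRNAs were listed in all 8 libraries. From 0.26 to 0.5 RPM the shares were 96.5% of 142 and 98.2% of 1413, from 0.5 to 1 RPM 96.1% of 76 and 98.4% of 917, and above 1 RPM 97.1% of 70 and 99.3% of 812. The long share was the lower of the pair in each of these 4 bands. These are descriptions over circRNAs, which are not replicates, and carry no test.

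Most long circRNAs shared a splice end with a shorter one. A start or an end, at the exact base and on the same strand, was shared with a shorter circRNA by 4980 of 5622 (88.6%). Both ends were shared by 2574 (45.8%), only the start by 1164 (20.7%) and only the end by 1242 (22.1%). Of the 642 that shared neither, 284 shared an end with another long circRNA, which left 358 (6.37%) with ends that no other entry used. Counting partners of any span, 93.6% of long and 80.9% of shorter circRNAs shared an end. Within a library, where only entries listed there count, 88.8% ± 0.611 of long and 71.1% ± 0.587 of shorter circRNAs shared one (SD, n = 8 libraries, higher for the long in 8 of 8, exact sign-flip permutation test p = 0.00781, adjusted over the 4 comparisons 0.00781).

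A nested long circRNA had a median of 3 shorter partners, and at most 17. The partners' median span was 20427 bases. Sharing went with detection: 95.9% of the 827 long circRNAs in all 8 libraries shared an end with a shorter one and 65.9% shared both ends, whereas 83.3% and 35.3% did so among those listed in a single library. Long circRNAs used 4148 distinct starts and 4111 distinct ends, of which 990 starts and 1007 ends served 2 or more of them, with up to 8 on 1 start and 9 on 1 end. A further measure of nesting is the shorter circRNAs that lie wholly inside the span on the same strand. The median long circRNA held 5, the fullest 58, and 510 (9.07%) held none. Entries on the opposite strand shared bases with 116 long circRNAs (2.06%) and 677 shorter ones (1.46%).

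A long circRNA that shared ends was usually below the sum of its shorter partners. The ratio of its mean RPM to the summed mean RPM of its shorter partners had a median of 0.304 over the 793 that were listed in all 8 libraries and had such partners, with quartiles of 0.0973 and 1.02. In 200 of them (25.2%) the long form was above all its shorter partners together, and in 206 (25.98%) it was below 0.1 of them. Per library, long circRNAs made up 15.7% to 16.4% of the RPM that nested long circRNAs and their shorter partners held together.

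**Figure D2:**
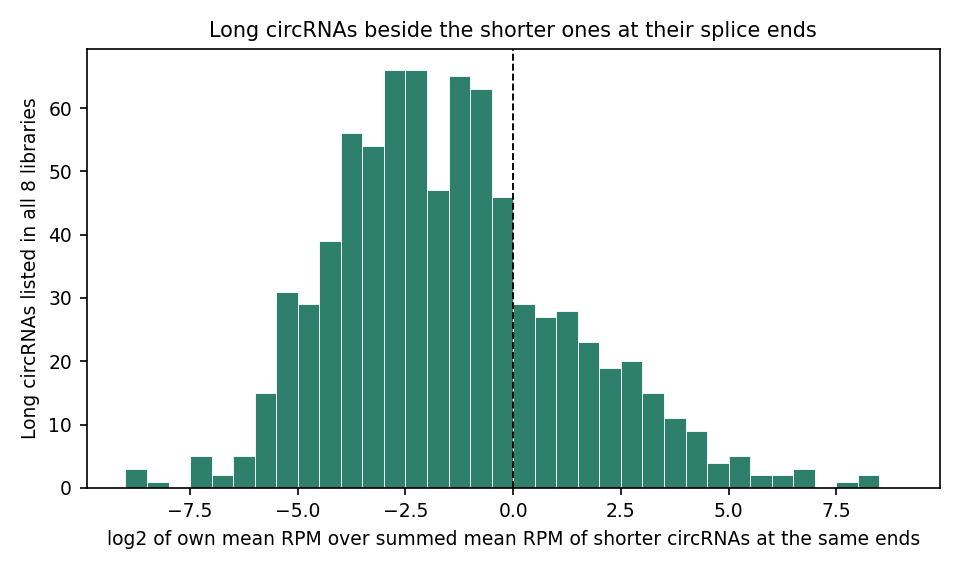
Histogram of the log2 ratio of mean RPM, long circRNA over the sum of its shorter partners, for the 793 long circRNAs listed in all 8 libraries that share a start or end with a shorter one. The ratios spread from far below 1 to a highest value of 322, with 200 above 1.

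In 6 long circRNAs the shorter partners were almost absent, and these had the highest ratios. At chr1:265331904-265401005 (minus strand, 69102 bases) the long circRNA stood at 1.24, 0.800, 0.983 and 1.30 RPM in sham 1 to 4 and 0.684, 1.07, 0.925 and 1.31 in mTBI 1 to 4, and its shorter partners averaged 0.00323 RPM in sum, a ratio of 322. At chr8:45691134-45743143 (plus strand, 52010 bases) the values were 4.52, 5.94, 4.80 and 3.24 RPM in sham and 5.61, 4.39, 3.36 and 5.42 in mTBI, 285 times the partners. At chr17:19160994-19250082 (plus strand, 89089 bases, ratio 226) levels were even, with 1.55, 1.45, 1.67 and 1.52 RPM in sham and 1.33, 1.34, 1.29 and 1.54 in mTBI. The other 3, on chromosomes 5 and 3, had ratios of 127, 111 and 111. These 6 were picked only among long circRNAs listed in every library, so their detection is not a finding. Sham and mTBI values overlapped in each of the 6.

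The most abundant long circRNA, chr7:32922004-32982696 (minus strand, 60693 bases), ranked 26th among all circRNAs. It stood at 15.5, 14.7, 12.3 and 13.97 RPM in sham and 11.8, 10.5, 11.8 and 10.7 RPM in mTBI. Every mTBI value lay below every sham value. Its shorter partners at the shared end, one of 33045 bases and another of 3534 bases, stood at 0.581 to 0.932 and 0.336 to 0.630 RPM over the 8 libraries, so most of the signal at that end was in the long form. A further long circRNA of 52429 bases with that end reached 0.772 to 1.68 RPM.

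The next in mean level were on chromosomes 1, 8 and 5. At chr1:278698312-278749829 (plus strand, 51518 bases) sham values were 8.88, 8.51, 11.7 and 11.7 RPM and mTBI values 6.70, 10.3, 11.6 and 12.4. At chr8:33279134-33335423 (plus strand, 56290 bases) they were 9.37, 9.62, 10.2 and 10.1 in sham and 8.37, 10.5, 8.47 and 9.69 in mTBI. At chr5:2257913-2314821 (plus strand, 56909 bases) they were 8.86, 8.72, 8.80 and 11.6 in sham and 5.74, 10.1, 9.25 and 9.03 in mTBI. In all 3 the groups overlapped, and mTBI 1 had the lowest value of the 8. This library also had the lowest sum over long circRNAs, and the part of that in these values was not tested.

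At chr5:167516581-167581074 (plus strand, 64494 bases) the long circRNA was only one of several strong forms from its start. It stood at 7.99, 6.08, 7.83 and 8.08 RPM in sham and 6.31, 6.46, 7.33 and 7.89 in mTBI. From the same start, a form of 41670 bases reached 8.31 to 11.99 RPM, one of 31161 bases 4.97 to 6.24 and one of 9695 bases 7.04 to 10.1. Another long form from this start, chr5:167516581-167615430 (98850 bases), stood at 1.79 to 2.48 RPM.

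**Figure D3:**
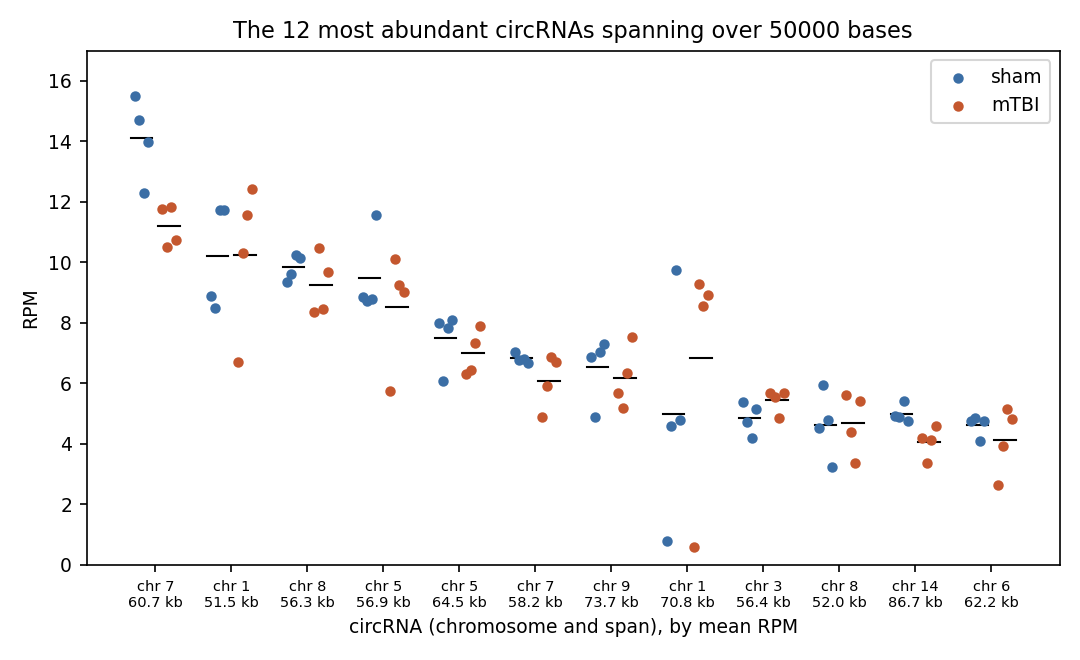
RPM in each of the 8 libraries for the 12 long circRNAs with the highest mean level, sham and mTBI libraries in separate colours and short lines at the group means. The values overlap between groups for most, the circRNA at chr7:32922004-32982696 shows all 4 mTBI values below the 4 sham values, and chr1:278679022-278749829 runs from 0.581 to 9.76 RPM.

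Ranks 6 to 12 lay between 4.38 and 6.46 RPM on average. These included chr7:78462288-78520474 (plus strand), with 7.05, 6.76, 6.82 and 6.69 RPM in sham and 4.88, 5.93, 6.87 and 6.70 in mTBI. They also included chr14:106921499-107008241 (minus strand, 86743 bases), with 4.94, 4.90, 5.42 and 4.76 in sham and 4.19, 3.38, 4.12 and 4.58 in mTBI, groups that do not overlap. The same was seen for 2.81% of all circRNAs tested. The log2 change of this circRNA was -0.30 (SE 0.14) and did not pass (limma adjusted p = 0.973). Its shorter partners averaged 0.0696 RPM in sum, so here too the long form held nearly all the signal at its ends. By contrast chr3:54509941-54566332 (minus strand) averaged 5.15 RPM beside shorter partners of 12.3 RPM in sum.

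The longest circRNAs in all 8 libraries were mostly low. The longest, chr1:163965001-164064815 (minus strand, 99815 bases), stood at 0.452, 0.262, 0.401 and 0.387 RPM in sham and 0.284, 0.424, 0.456 and 0.298 in mTBI. It shared its end with circRNAs of 39298 bases (14.4 to 20.02 RPM) and 18714 bases (11.6 to 15.3 RPM), so it added little to what that end produced. The next in length, chr16:4000863-4100241 (plus strand, 99379 bases), averaged 0.125 RPM, chr13:78393372-78492542 0.0535, chr5:167516581-167615430 2.22 and chr7:103024404-103123226 0.131.

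Around the limit of 50000 bases, levels did not follow the side of the limit. Among circRNAs in all 8 libraries, the 3 just above it, of 50025, 50042 and 50081 bases, averaged 0.592, 0.0551 and 0.286 RPM. The 3 just below it, of 49963, 49959 and 49946 bases, averaged 0.125, 0.0875 and 0.305 RPM.

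Long circRNAs clustered in loci, taken here as entries of one strand joined through shared exact starts or ends. Of 16050 loci, 2116 had a long circRNA, 1139 had just 1, and 97 had 10 or more. Both long and shorter circRNAs were present in 1713. Long circRNAs alone were present in 403, of which 358 were lone entries. In 259 loci of 2 or more entries the long ones held over 50% of the RPM. This count includes loci of several long circRNAs with no shorter one, where they hold all of it. The locus with the most, chr4:64389860-64704848 (minus strand), had 31 long of 74 circRNAs, but these held 12.97% of its RPM. The next, chr7:78122159-78574310 (plus strand), had 30 of 77 and 60.5% of the RPM, at 14.1, 13.6, 14.2 and 13.5 RPM in the sham libraries and 11.01, 12.3, 13.6 and 13.9 in mTBI.

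Loci with high summed long RPM were ordered differently. The highest, chr1:278562577-278777648 (plus strand), had 29 long of 67 circRNAs and 25.3 RPM in long ones on average. Those of chr5:167441530-167615430 (plus strand) ran from 17.6 to 22.1 RPM over the libraries, 36.0% of that locus. At chr7:32903765-33015423 (minus strand) they averaged 13.8 RPM, 87.8% of the locus, and at chr9:31551449-31816480 (minus strand) 13.5 RPM, 74.5% of it. Over the 8 loci named by rule, the long sum at chr7:32903765-33015423 was 16.9, 15.9, 13.4 and 15.7 RPM in sham and 12.7, 11.3, 13.04 and 11.7 RPM in mTBI, with no overlap (exact permutation test over 70 assignments, two-sided, p = 0.0286, the smallest possible; 0.114 after Benjamini-Hochberg adjustment over the 8 loci). Most of that sum was 1 circRNA described above, chr7:32922004-32982696, which averaged 12.7 RPM, so the locus is not a result separate from it. The long sum at chr9:28442925-28732920 (minus strand) also had no overlap, with 2.40 ± 0.242 RPM in sham and 2.01 ± 0.117 in mTBI (SD, n = 4 each, exact permutation p = 0.0286, adjusted 0.114). The other 6 loci overlapped, with exact permutation p of 0.171 to 0.743. None of the 8 passed the threshold after adjustment. As a percent of the RPM of their locus, the long circRNAs overlapped between groups at both loci without overlap in the sum. At chr7:32903765-33015423 this was 86.4% to 91.5% in sham and 84.8% to 87.4% in mTBI. At chr9:28442925-28732920 it was 7.95% to 9.77% in sham and 7.48% to 8.79% in mTBI. The share of all loci without overlap is not given here.

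At the chromosome 1 locus, animals of a group differed in the long sum. Long circRNAs there summed to 14.05, 21.1, 34.0 and 23.6 RPM in sham and 11.6, 30.5, 32.6 and 34.8 RPM in mTBI. Sham 1 and mTBI 1 were the lowest, and the groups overlapped (exact permutation p = 0.571, adjusted 0.653). The range over animals differed by start. Circles from the outer start at 278679022 summed, long and shorter together, to 2.29, 11.2, 21.0 and 9.31 RPM in sham and 1.96, 18.7, 19.2 and 19.4 RPM in mTBI, a 10.7-fold range. Circles from the inner start at 278698312, which lies 19290 bases further, ran only from 10.5 to 20.5 RPM, a 1.95-fold range.

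The outer forms were lowest in sham 1 and mTBI 1 at each of the 4 ends that both starts used. For the end at 278749829 the long form of 70808 bases from the outer start stood at 0.788, 4.59, 9.76 and 4.80 RPM in sham and 0.581, 9.27, 8.55 and 8.93 RPM in mTBI. As a percent of the 51518-base form from the inner start with the same end, this was 8.88, 53.9, 83.0 and 40.9 in sham and 8.67, 89.8, 73.8 and 71.8 in mTBI. The outer form of 52734 bases to the end at 278731755 ranged from 0.735 to 7.03 RPM, and the shorter outer form of 22845 bases to 278701866 from 0.633 to 3.22 RPM, each lowest in sham 1 and mTBI 1. The outer form of 94451 bases to 278773472 was listed at 0 in mTBI 1, at 0.0388 RPM in sham 1 and at 0.477 to 1.21 RPM in the other 6 libraries. The inner forms to 278731755 and 278773472 were also lowest in mTBI 1 and sham 1, over narrower ranges of 2.48 to 5.82 and 0.232 to 1.14 RPM. In the opposite direction, a circRNA of 75495 bases from 278656261 to 278731755 was highest in sham 1 and mTBI 1, at 0.995 and 0.929 RPM, against 0.168 to 0.721 RPM elsewhere. This locus was chosen for its summed RPM, and the choice of these starts was made after seeing the values.

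**Figure D4:**
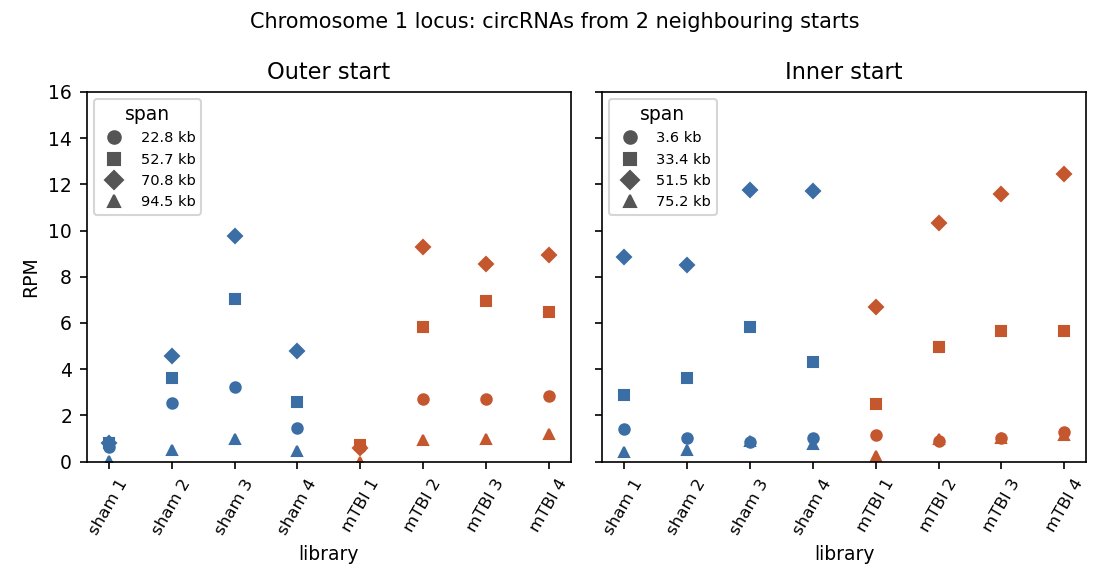
RPM in each of the 8 libraries for circRNAs of the chromosome 1 locus that begin at the outer start (left) and at the inner start (right), with a symbol for each span. The outer-start circRNAs are low in sham 1 and mTBI 1, and the inner-start circRNAs range less, 1.95-fold in sum against 10.7-fold.

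Across splice ends in general the range was smaller. There were 146 starts or ends with at least 1 RPM of long circRNAs, and over these the highest library stood a median of 1.55 times above the lowest. The range was over 2 times at 22 of them and over 4 times at 6, of which 3 were listed at 0 in a library. The 6 are not all separate cases. Both the start and the end of chr1:119464809-119545970 are among those at 0. The start at 278679022 and the end at 278773472 belong to the same chromosome 1 locus. The chromosome 1 start at 278679022 was among the 6, as was the end at chr1:120955517 (minus strand), where the long form of 95345 bases stood at 0.361 RPM in sham 4 and at 1.70 to 2.92 RPM in the other 7 libraries.

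Some long circRNAs were strong in several animals and listed at 0 in others. Among long circRNAs that reached over 1 RPM in a library, 5 of 107 (4.67%) were listed at 0 in another, against 20 of 1149 shorter ones (1.74%). Over 0.5 RPM the counts were 18 of 235 (7.66%) and 71 of 2515 (2.82%). The circRNA at chr4:58714647-58802600 (plus strand, 87954 bases) was listed at 0 in sham 1 and 2 and at 4.75 and 5.44 RPM in sham 3 and 4, against mTBI values of 5.04, 4.42, 5.67 and 5.59 RPM. The shorter form of 11001 bases from the same start ran from 10.3 to 12.9 RPM in all 8 libraries, so use of that start did not drop out with the long form.

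2 of the 5 were listed in a single library. The circRNA at chr13:109403515-109471561 (minus strand, 68047 bases) stood at 2.31 RPM in mTBI 4 and at 0 elsewhere, although the 29307-base form with the same end was at 5.74 to 8.84 RPM in every library. The circRNA at chr20:5351888-5414567 (plus strand, 62680 bases) stood at 1.29 RPM in sham 3 only. Its neighbour with the same end, chr20:5347661-5414567, was listed at 0.581 RPM in sham 1 and 0.490 in sham 4 only, so the end was listed in 3 libraries, each with a single form. At chr5:129448885-129528945 (plus strand, 80061 bases) sham 1 stood at 1.76 RPM and the other 7 at 0.0643 to 0.348. The circRNA of 42496 bases from the same start was also highest in sham 1, at 4.52 RPM against 0.616 to 1.12.

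Of the 5 long circRNAs with the highest spread within groups, among those averaging at least 0.26 RPM and listed in at least 4 libraries, 4 were listed at 0 in some library. These included chr1:119464809-119545970, described below, and 3 others. At chr1:122605870-122678378 (minus strand, 72509 bases) sham 4 stood at 0.928 RPM and the other 3 sham libraries at 0, with 0.542, 0, 0.469 and 0.350 RPM in mTBI. At chr8:131373790-131462801 (plus strand, 89012 bases) sham 2, sham 4 and mTBI 1 were at 0 and the other 5 libraries at 0.478 to 0.675 RPM, while the 46637-base form with the same end ran from 2.34 to 2.87 RPM in all 8. At chr7:98606921-98682856 (minus strand, 75936 bases) sham 1 and sham 3 were at 0 and the other 6 at 0.116 to 0.619 RPM. In each of these 3 the libraries at 0 included sham and the groups overlapped.

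Within groups, the spread of long circRNAs was close to that of shorter circRNAs of like level. The coefficient of variation over the 4 animals of a group, averaged over both groups, had a median of 36.8% for long and 35.6% for shorter circRNAs between 0.13 and 0.26 RPM. It was 27.6% and 26.3% from 0.26 to 0.5 RPM, 22.9% and 20.4% from 0.5 to 1 RPM, and 16.3% and 14.6% above 1 RPM. From 0.065 to 0.13 RPM the order was the other way, with 48.3% for long and 50.4% for shorter circRNAs, and so it was within mTBI alone from 0.5 to 1 RPM, with 18.004% and 21.0%. The quartiles overlapped, such as 11.4% to 22.3% for long and 11.02% to 18.8% for shorter above 1 RPM.

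The comparison of mTBI with sham asked whether injured cortex had more or less of the long circRNAs. Their summed RPM was 462 ± 23.7 in sham and 451 ± 41.5 in mTBI (SD, n = 4 each, difference -11.4, exact permutation test p = 0.714). They made up 8.51% ± 0.207 and 8.42% ± 0.0943 of the RPM (exact p = 0.543). The number listed was 2311 ± 78.7 in sham and 2270 ± 84.0 in mTBI (exact p = 0.486), or 10.2% ± 0.0494 and 10.1% ± 0.155 of all listed circRNAs (exact p = 0.229). The long share of the RPM of nested circRNAs was 15.98% ± 0.320 and 15.9% ± 0.163 (exact p = 0.771). Each of the 5 differences was smaller than the larger of the group SDs, and all had an adjusted p of 0.771 over the 5 (exact permutation, smallest possible unadjusted p 0.0286). Without mTBI 1 the percent of listed circRNAs that are long was lower in mTBI by 0.184 percentage points with no overlap between groups, since mTBI 1 had the highest share of all, 10.3%.

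Single circRNAs were tested with limma on log2(RPM + 0.0259) where they were listed in at least 4 libraries, as 2001 long circRNAs were, of 20174 tested in all. The other 3621 long circRNAs were too sparsely listed. At an adjusted p of 0.05, 2 long circRNAs passed, 1 higher and 1 lower in mTBI (limma), where 0.0248% of all circRNAs tested passed, 0.00991% higher and 0.0149% lower. The number ran from 0 to 3 with 1 library left out. It was 3 without sham 3, 1 without sham 1 or mTBI 1, and 0 by limma without mTBI 2, 3 or 4, where 82, 86 and 97 long circRNAs had an unadjusted p under 0.05. At an unadjusted p under 0.05 there were 94 long circRNAs, 4.70% of those tested, against 4.68% of all tested. The median log2 change was -0.02 for long circRNAs and -0.02 for all tested, and 963 long circRNAs had a positive and 1038 a negative change. A log2 change of less than 0.5 in either direction was found in 1370 long circRNAs (68.5%), against 70.1% of all, and a change of 1 or more in 116, against 5.42% of all.

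**Figure D5:**
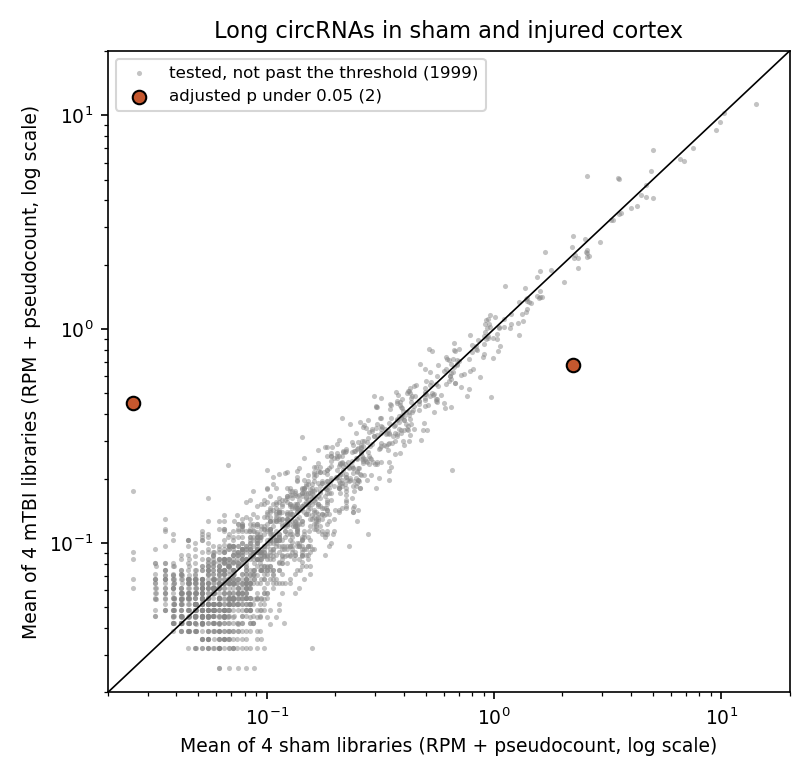
Mean RPM in mTBI against mean RPM in sham for the 2001 long circRNAs tested, with the pseudocount added and on log axes, with a line at equal levels and the 2 that passed an adjusted p of 0.05 marked. The points lie along the diagonal and spread more widely at low level.

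Both long circRNAs that passed were listed at 0 in several libraries. The higher one, chr1:278661823-278749829 (plus strand, 88007 bases), was listed in no sham library, while mTBI 1 to 4 gave 0.0387, 0.592, 0.482 and 0.584 RPM (limma, adjusted p = 0.00462). It belongs to the chromosome 1 locus described above and ends at 278749829 like the 51518-base and 70808-base forms. Its start was not seen in mTBI libraries only. Sham 4 listed a 40044-base form from that start (0.0902 RPM), as did mTBI 4 (0.156 RPM). Sham 4 alone listed a 69933-base form from there (0.142 RPM). All 4 libraries that list the 88007-base circRNA are mTBI, so it met the 4-library minimum for testing only through the group in which it is higher. Its call was lost with limma voom (adjusted p = 0.297), without the variance trend (0.275) and with a mean of at least 0.13 RPM as the filter (0.437). Over 13 alternatives its limma adjusted p ran from 3.84e-10 to 0.437, and without any single mTBI library it was listed in only 3 and could not be tested.

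The lower one, chr1:119464809-119545970 (minus strand, 81162 bases), was listed in every sham library, with 2.73, 0.695, 2.20 and 3.21 RPM, and in mTBI 1 alone of the injured, with 2.62 RPM (limma, adjusted p = 0.0149), so that the groups overlapped. Its ends were nearly its own: the 3 other circRNAs with that start or end, all long, stood at 0.0646 RPM or less in every library. An entry that starts at 119464813 with the same end, almost the same junction, was listed at 0.0386 RPM in mTBI 2, at 0.0258 RPM in mTBI 1 and at 0.0645 RPM in sham 4. The call was lost without sham 1 (limma adjusted p = 0.119), sham 4 (0.0797), mTBI 2 (0.319), mTBI 3 (0.160) or mTBI 4 (0.219), and with limma voom (0.370), without the variance trend (0.644), with robust shrinkage (0.973), with a mean of at least 0.13 RPM as the filter (0.844) or with 0.5 times the pseudocount (0.0668). Over 17 alternatives its limma adjusted p ran from 9.20e-49 to 0.973.

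Between sham and mTBI there was no overlap of values for 49 long circRNAs (2.45%), 21 higher and 28 lower in mTBI, against 2.81% of all circRNAs tested, 1.39% higher and 1.41% lower. By this count the long circRNAs were near the background. The most abundant of them was chr7:32922004-32982696, whose values are given above. It averaged 14.1 ± 1.37 RPM in sham and 11.2 ± 0.682 in mTBI (SD, n = 4 each). On the log2 scale this is -0.33 (SE 0.12), which did not pass (limma adjusted p = 0.920). At chr8:115870141-115932067 (minus strand, 61927 bases) the values were 3.72, 3.16, 3.20 and 3.87 RPM in sham and 4.63, 4.76, 6.46 and 4.37 in mTBI, or 0.52 on the log2 scale (SE 0.15), with an adjusted p of 0.612 (limma). Of 17 alternatives it passed with no filter (limma adjusted p = 0.0494) and with robust shrinkage (0.0339), and the highest was 0.991. At chr13:109403515-109459916 (minus strand, 56402 bases) sham stood at 0.685, 0.642, 0.919 and 0.696 RPM and mTBI at 0.426, 0.617, 0.287 and 0.506, or -0.69 on the log2 scale (SE 0.24), with an adjusted p of 0.866 (limma).

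Several others of the 49 were listed in only one group, and so met the 4-library minimum for testing only through the group in which they are higher. The circRNA at chr12:39429-108383 (minus strand, 68955 bases) was not listed in sham, and mTBI gave 0.116, 0.0900, 0.0912 and 0.298 RPM (limma adjusted p = 0.110). In the other direction, chr2:224298532-224363213 (minus strand) was at 0.0517, 0.0655, 0.0647 and 0.0387 RPM in sham and at 0 in mTBI (adjusted p = 0.822, limma), and chr4:22871497-22941929 (plus strand) at 0.0388, 0.131, 0.0518 and 0.0258 RPM and 0 (adjusted p = 0.866, limma). These levels are a few times the smallest listed value, where the table cannot tell a library with no junction read from one with fewer reads than the smallest listed value stands for.

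The circRNA at chr4:58714647-58802600, absent from the list in 2 sham libraries, did not pass either (adjusted p = 0.405, limma). It passed without sham 3 (0.00913) or without sham 4 (0.0104), where the sham group keeps only 1 library that lists it, and with no filter (8.55e-84), all by limma, but in none of the other alternatives run, where the adjusted p reached 0.994.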

How the data were processed

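The authors deposited RPM values, 1 column for each of 8 libraries per the file headers, in rows named by chromosome, start, end and strand. Libraries were stranded, from total RNA without ribosomal RNA, per the labels' protocols. Trimmomatic 0.36, DESeq and the build Rnor 6.0 are named in the submitters' processing notes. An aligner or circRNA caller is not given in the sources used here. Columns named Con were taken as the sham libraries, with the number of the replicate, and all 8 value columns were used.

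From these values, span was computed as end minus start plus 1. Shared ends are exact positions on one chromosome and strand. Single circRNAs listed above 0 in at least 4 libraries were fitted over the whole table (R 4.3.3, limma 3.58.1, eBayes with its trend option after lmFit) on log2(RPM + 0.0259), two-sided, with Benjamini-Hochberg adjustment over all 20174 tested and a threshold of 0.05. The pseudocount is the median over libraries of the smallest value above 0. Changes of low circRNAs are understated on this scale. Values per library were compared by exact permutation over 70 assignments, and long with shorter circRNAs by sign flips within libraries, a test added after seeing the data. Python 3.11.15, numpy 2.4.6, pandas 2.3.3, scipy 1.17.1 and matplotlib 3.10.9 were used.

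Every listed value was a whole multiple, to within 0.01 read, of a step that makes the smallest value 2 reads. This reading was used for read totals, thinning, limma voom and the simulated reads. It limits the precision of single values: a circRNA at the smallest value rests on 2 reads. On simulated reads for long circRNAs averaging at least 10 reads, in the comparison of mTBI with sham on 21007 rows, 66% of 2-fold and 97% of 4-fold changes were recovered, with 2 false calls. Every simulated circRNA had the same spread setting, taken from abundant circRNAs. Recovery among circRNAs with fewer reads, or with larger spread between animals, was not simulated.

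The long circRNAs, the loci and the rule for those named were chosen with earlier results of these data known. The rule takes those past the threshold, the 12 highest means, the 6 smallest p per direction without overlap, the 5 longest and the 5 most variable, the 3 on each side of the limit, the 6 highest ratios to shorter partners, and 5 loci each by long circRNAs and by long RPM. Those over 1 RPM and listed at 0 elsewhere, and the splice ends compared between animals, were added after their values were seen. Host genes and sequences are not reported here, since the gene annotation at hand uses a different assembly. Alternatives covered the span limit, the filter, the pseudocount, centring of libraries, the way variance was modelled, a block for the replicate number, and leaving out single libraries.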

Additional observations from a re-analysis of the deposited data

Results flagged for a closer look

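In groups of 4 libraries, a value was singled out where its gap to the nearest of the others was more than the 95% critical share of the group's range (Dixon's ratio, given below). Of 98 groups examined 18 met this. Chance gives about 1 in 20, but the 18 cannot be set against that rate. Some of the circRNAs examined were named for high spread within groups or for being listed at 0 in some libraries. Ratios of 1 also arise whenever 3 libraries are listed at 0.

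Among the sums over long circRNAs, sham 2 was low in summed RPM (427 against 471 to 477, ratio 0.880) and in the number listed (2193 against 2348 to 2353, ratio 0.969). Sham 1 was high in the percent of listed circRNAs that are long (10.3% against 10.2%, ratio 0.946).

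Among single long circRNAs in sham, chr5:2257913-2314821 was high in sham 4 (11.6 RPM, ratio 0.948), chr5:167516581-167581074 low in sham 2 (6.08 RPM, ratio 0.873), and chr6:28022406-28084649 low in sham 3 (4.10 RPM, ratio 0.858). Sham 1 was high at chr5:129448885-129528945 (1.76 RPM, ratio 0.928) and sham 2 at chr5:103089622-103172127 (0.380 RPM, ratio 0.853). Listed in 1 sham library only were chr1:122605870-122678378 (0.928 RPM in sham 4, ratio 1), chr20:5351888-5414567 (1.29 RPM in sham 3, ratio 1), and chr16:3618441-3674897 and chr1:207023297-207111018 (0.0387 RPM each in sham 4, ratio 1).

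In mTBI, library 1 was low at chr1:278679022-278749829 (0.581 RPM against 8.55 to 9.27, ratio 0.916), and it alone listed chr1:119464809-119545970 (2.62 RPM, ratio 1). Library 4 alone listed chr13:109403515-109471561 (2.31 RPM, ratio 1) and chr3:58651577-58709070 (0.0260 RPM, ratio 1), and it was high at chr12:39429-108383 (0.298 RPM, ratio 0.875). Library 3 was low at chr3:54509941-54566332 (4.86 RPM, ratio 0.853). The part of library depth in these values was not tested.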

How the results depend on the processing

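Against 2 long circRNAs past the threshold, limma called 9 with no filter, 3 with robust variance shrinkage and 1 with a pseudocount of 0.5 times. It called 0 with voom (104 at an unadjusted p under 0.05), 0 without the variance trend (90) and 0 with a mean of at least 0.13 RPM (29, of 540 tested). With the replicate number as a block it also called 0 (90 at an unadjusted p under 0.05), with limma adjusted p of 0.189 at chr1:278661823-278749829 and 0.255 at chr1:119464809-119545970. The samples share only that number: deviations of same-numbered libraries correlated at 0.104, -0.0164, 0.0833 and -0.0142 over long circRNAs in all libraries, and sham 1 and 3 but not sham 2 and 4 correlated best with their own number. Leaving out each library gave 0 to 3.

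Differences of mTBI minus sham, none past the threshold as reported, changed sign in part. With a span limit of 75000 bases the percent of RPM differed by 0.0213, and the long share of nested circRNAs by 0.0726 (0.0353 at 60000 bases). With circRNAs in at least 4 libraries only, the number listed differed by 4 and the percent listed by 0.0661. Leaving out each library, summed RPM differed by -27.4 to 1.18, the percent of RPM by -0.161 to 0.00336, the percent listed by -0.184 to -0.0653 (exact permutation p = 0.0286 without mTBI 1) and the nested share by -0.183 to 0.0611. The number listed kept its sign, -81 to -16.

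With span limits of 40000, 60000 and 75000 bases, chosen after seeing the data, 86.8%, 89.9% and 90.7% shared an end with a shorter circRNA, and at 75000 bases 13.7% were in all 8 libraries. The larger the limit, the more circRNAs count as shorter.

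Single log2 changes near 0 also turned: -0.00461 at chr8:45691134-45743143 with libraries centred on their median, -0.00532 at chr13:78393372-78492542 with 4 times the pseudocount, and -0.14 at chr1:278679022-278773472 with voom. With 1 library left out they ran from -0.13 to 0.18, -0.14 to 0.31 and -0.60 to 1.56 at these 3, from -0.40 to 1.29 at chr1:278679022-278749829, -0.12 to 0.18 at chr1:278698312-278749829, -0.19 to 0.0650 at chr1:163965001-164064815, -0.27 to 0.0366 at chr1:265331904-265401005, -0.27 to 0.00511 at chr5:2257913-2314821, -0.27 to 0.34 at chr7:103024404-103123226, -0.21 to 0.00431 at chr9:31620318-31693992 and -0.22 to 0.16 at chr13:46528557-46578598. The cause was not tested. The edgeR and DESeq2 alternatives were not run, since the values are RPM and the reads used for voom were only inferred from their step. Not tested singly were 3621 long circRNAs, listed in fewer than 4 libraries; the part of depth in this was not tested.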
